A study of Mus musculus with 12 samples.

Results

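The T and B lymphocyte genes were 37 genes that mark T cells (20 genes) or B cells (17 genes), and every probe set of the deposited value table annotated to 1 of them alone was taken, whatever its values. The annotation held 77 such probe sets for 36 of the 37 genes, of 34945 probe sets and 18193 genes with a single symbol: 43 probe sets for 19 T genes and 34 for 17 B genes. Lck, the kinase that starts T cell receptor signalling, was not analysed here. A probe set was tested if it lay above its array's median on at least 3 of 12 arrays, and a gene was read from its probe set with the highest mean over the arrays. By that rule 51 of the 77 probe sets were tested and 26 were not, and 35 genes were tested, 19 T and 16 B. The B cell identity factor Pax5 was the exception, since neither of its probe sets passed the array median on any array.

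The study measured mammary gland RNA of female BALB/c mice, wild type or null for the progesterone receptor, on 12 Affymetrix arrays. All mice were ovariectomized and 10 weeks old, and all received 100 ng of 17β-estradiol by subcutaneous injection for 24 h, followed by 100 ng of 17β-estradiol plus 2.5 µg of progesterone for 8 h or 24 h. The 4 groups were wild type at 8 h, null at 8 h, wild type at 24 h and null at 24 h, with 3 arrays each, and each array held RNA of a pool of 3 mice. No group went without hormone, and the labels neither describe the null allele nor say which glands were taken or whether lymph nodes were left in them. Separate pools are the replicates here, so the spread between arrays includes the differences between mice and between dissections.

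A T cell recognises antigen with a receptor whose signal is carried by the CD3 chains and the zeta chain, and the coreceptors CD4 and CD8 divide T cells into helper and cytotoxic lineages. A B cell carries surface immunoglobulin coupled to CD79A and CD79B. EBF1 and PAX5 are factors that set B cell identity, and OBF1 is a transcriptional coactivator of B cells. Naive cells of both lineages gather in lymph nodes, and the inguinal mammary fat pad of the mouse encloses such a node, so RNA of whole glands can hold lymphocyte transcripts.

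T and B genes moved together from pool to pool, and their levels differed more between single pools of 1 group than between the group means. The T level of a pool is the mean, over the 19 T genes, of its log2 value minus that gene's mean over the 12 arrays, and the B level is the same over the 16 B genes. The T levels were 0.19, 0.02 and -1.10 in the wild-type pools 1 to 3 at 8 h and -1.16, -0.13 and -0.04 in the null pools at 8 h. At 24 h they were 0.57, -0.59 and 0.78 in wild type and -1.0, 0.78 and 1.68 in null. One pool of every group lay well below its companions, and null pool 3 at 24 h lay highest. The B levels were 0.20, 0.10 and -1.17 in wild type and -1.39, -0.22 and -0.0039 in null at 8 h, then 0.68, -0.36 and 0.98 in wild type and -1.19, 0.78 and 1.59 in null at 24 h. The lowest and highest pools differed by 2.84 on the log2 scale for T genes, 7.14-fold, and by 2.98 for B genes, 7.87-fold. In such bulk RNA, fewer lymphocytes in a pool and less of these transcripts per lymphocyte cannot be told apart.

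**Figure D1:**
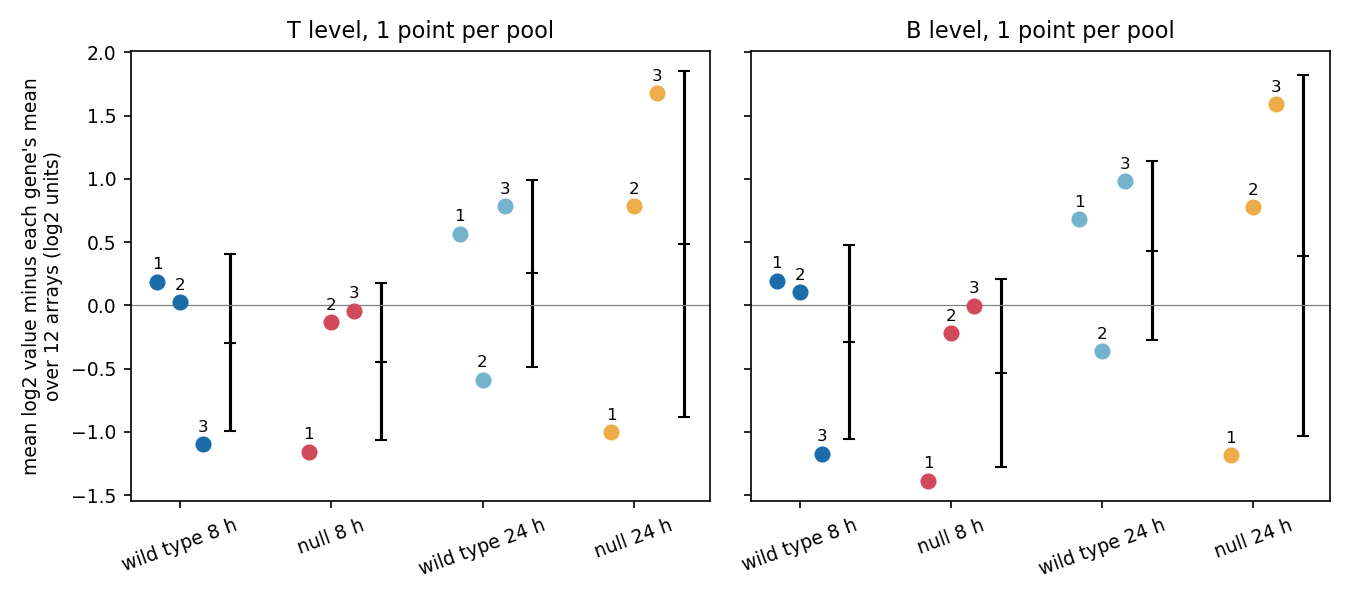
T level (19 genes) and B level (16 genes) of each pool, as the mean log2 value minus each gene's mean over the 12 arrays, for the 4 genotype-by-time groups with 3 pools each. The range within null at 24 h, from -1.0 to 1.68 for T genes, spans the levels of all other pools except the lowest ones at 8 h.

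The 4 low pools were low for almost every member. Wild-type pool 3 at 8 h was the lowest of its group for 19 of 19 T genes and 14 of 16 B genes, and null pool 1 at 8 h for 18 and 16. At 24 h, wild-type pool 2 was the lowest for 18 T and 13 B genes and null pool 1 for 18 and 15. Over all 12004 genes tested, those same pools were the lowest of their group for 32.9%, 41.5%, 33.2% and 37.8% of genes. Null pool 3 at 24 h held the highest of the 12 values for 18 T and 14 B genes, against 10.2% of all genes. The pool differences of the members were thus shared across the list. The correlation between arrays of 1 group ran from 0.965 to 0.993 over all tested probe sets, and the array medians from 5.84 to 5.91. Such a correlation is set mainly by differences between genes. Neither measure shows how far the pools differed in genes other than the members.

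Measured gene by gene, the spread between pools of 1 group had a median SD of 0.90 on the log2 scale for T genes and 0.90 for B genes, against 0.14 for all genes tested. Of the members, 16 of 19 T genes and 13 of 16 B genes exceeded the 95th percentile of that SD over all genes. The group means accounted for a median of 25.8% of the variance over arrays for T genes and 24.1% for B genes, against 44.8% for all genes. The median member ranged 7.52-fold (T) or 8.12-fold (B) over the 12 arrays, while the median gene ranged 1.47-fold.

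**Figure D2:**
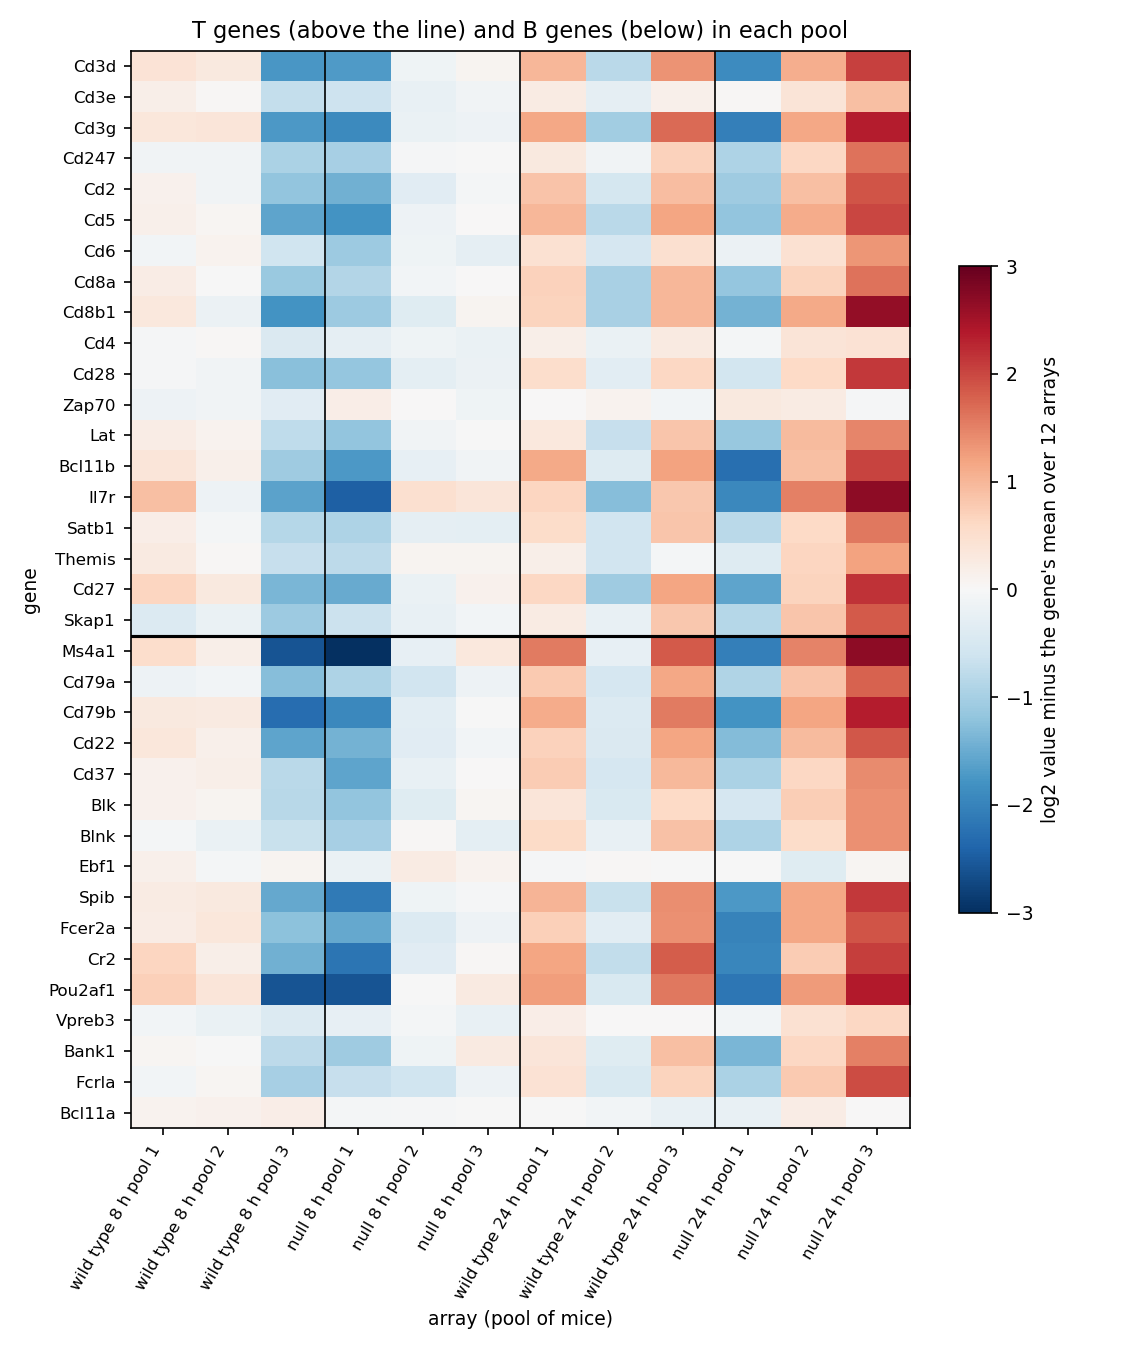
Log2 value minus the gene's mean over 12 arrays for each tested T and B gene (rows) in each pool (columns, in the 4 groups). The 4 low pools, 1 in each group, appear as low columns across most rows, and the rows of Zap70, Ebf1 and Bcl11a stay flat.

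The chains of the T cell receptor complex shared the pool pattern. Cd3d, the delta chain (probe set 1422828_at), had log2 values of 7.99, 7.86 and 5.84 in wild type at 8 h, 5.88, 7.44 and 7.67 in null at 8 h, 8.59, 6.78 and 8.93 in wild type at 24 h, and 5.70, 8.67 and 9.63 in null at 24 h. The groups overlapped, and the same 4 pools were low. Cd3g, the gamma chain (1419178_at), read 7.19, 7.20 and 5.12 in wild type at 8 h, 4.94, 6.65 and 6.68 in null at 8 h, 7.99, 5.80 and 8.53 in wild type at 24 h, and 4.80, 8.00 and 9.19 in null at 24 h, with the same low pools. The zeta chain Cd247 ranged less, from 5.60 to 8.24 (6.20-fold). The epsilon chain Cd3e (1422105_at) read 7.67, 7.55 and 6.78 in wild type at 8 h and 6.88, 7.28 and 7.40 in null at 8 h. At 24 h it read 7.74, 7.24 and 7.65 in wild type and 7.54, 7.90 and 8.40 in null. All 3 null pools at 24 h exceeded all 3 null pools at 8 h for Cd3e, though pool 1 was again the lowest of its group.

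The regions just before the start sites of 2 of these genes and of Cd5 are shown because they carry the letters AGGAAGT, a core bound by ETS family factors, which many lymphocyte promoters use. They are the 250 bases before the annotated start, 5′ to 3′ on the gene's strand, from RefSeq with build GRCm38.p6, and capitals mark the match on either strand.
Cd3e chr9:45009612-45009861, strand minus: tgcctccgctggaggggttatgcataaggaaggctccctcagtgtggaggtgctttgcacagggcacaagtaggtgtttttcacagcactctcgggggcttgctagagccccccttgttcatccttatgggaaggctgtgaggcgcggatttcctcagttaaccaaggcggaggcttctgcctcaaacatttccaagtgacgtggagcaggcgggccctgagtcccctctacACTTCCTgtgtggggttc
Cd3d chr9:44981536-44981785, strand plus: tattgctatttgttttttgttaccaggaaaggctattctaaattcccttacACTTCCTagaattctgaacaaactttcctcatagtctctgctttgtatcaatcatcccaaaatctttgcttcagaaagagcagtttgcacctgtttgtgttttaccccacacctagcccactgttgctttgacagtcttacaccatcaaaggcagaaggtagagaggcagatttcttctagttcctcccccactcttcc
Cd5 chr19:10738975-10739224, strand minus: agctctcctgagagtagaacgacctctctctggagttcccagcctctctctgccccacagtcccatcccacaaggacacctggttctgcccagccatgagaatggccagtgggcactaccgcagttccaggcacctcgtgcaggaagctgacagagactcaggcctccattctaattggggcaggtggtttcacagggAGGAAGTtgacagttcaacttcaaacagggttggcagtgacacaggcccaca
In Cd3e the match lies 18 to 12 bases before the start, in Cd5 52 to 46 bases and in Cd3d 199 to 193 bases. Cd247 carries these letters too, 58 to 52 bases before its start, and is not printed. RefSeq promoters were found for 28 listed genes, 14 T (Lck among them) and 14 B, with 39 windows of which some belong to 1 gene. The ETS letters stood in 8 of 22 T windows (36.4%), from 7 of 14 genes (Cd247, Cd3d, Cd3e, Cd5, Il7r, Lck and Satb1). They stood in 4 of 17 B windows (23.5%), from Blnk, Cd37, Cd79a and Vpreb3. Over all 32851 windows of that length the share was 7.69%. The arrays measured transcripts, so these matches are descriptions of sequence and not of binding.

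Coreceptors and surface molecules of T cells followed the CD3 chains, with unequal amplitude. Cd8b1, the beta chain of the cytotoxic coreceptor (1426170_a_at), read 6.67, 6.18 and 4.56 in wild type at 8 h, 5.26, 6.0 and 6.43 in null at 8 h, 7.04, 5.38 and 7.35 in wild type at 24 h, and 4.93, 7.49 and 8.99 in null at 24 h. Its alpha chain Cd8a (1444078_at) ranged from 4.77 to 7.56, 6.89-fold against 21.6-fold for Cd8b1. The helper coreceptor Cd4 (1419696_at) ranged 1.81-fold, from 6.10 to 6.96, and its lowest pool in each group was the same as for Cd3d. How near the low values of a probe set lay to the array's background is not shown by these values, so a fold range is that of the deposited values and not of the transcript.

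Other T genes filled the range between. The interleukin 7 receptor chain Il7r, which supports survival of naive lymphocytes, had the widest range of the T genes, 35.0-fold: 9.09, 8.03 and 6.57 in wild type at 8 h, 5.73, 8.65 and 8.53 in null at 8 h, 8.81, 6.89 and 8.99 in wild type at 24 h, and 6.24, 9.68 and 10.87 in null at 24 h. The T lineage factor Bcl11b ranged 19.3-fold, the receptor modulator Cd5 14.0-fold, the tumour necrosis factor receptor family member Cd27 13.5-fold, the co-stimulator Cd28 10.4-fold and the adhesion receptor Cd2 10.2-fold. Smaller ranges were found for the adaptor Skap1 (7.52-fold), the membrane adaptor Lat (6.31-fold), the chromatin organiser Satb1 (5.65-fold), the surface receptor Cd6 (5.33-fold) and the receptor signalling protein Themis (3.97-fold). For all 18 T genes other than Zap70, the lowest pool of each group was the same as for Cd3d.

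The kinase Zap70 departed from the other T genes at its representing probe set. That probe set (1439749_at) read 8.45, 8.50 and 8.26 in wild type at 8 h, 8.79, 8.61 and 8.47 in null at 8 h, 8.61, 8.71 and 8.51 in wild type at 24 h, and 8.90, 8.83 and 8.57 in null at 24 h. In 3 of the 4 low pools it was the highest value of its group, and its correlation with the mean of the other T genes was -0.11 over the 12 arrays. A pair of other Zap70 probe sets, too low to be tested, did follow the T genes, 1422701_at with r 0.91 and 1440178_x_at with r 0.92. Probe sets of Cd8a also disagreed, with r 0.98 for 1444078_at and 0.41 for 1440164_x_at.

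B cell genes carried the same pool pattern. Ms4a1, which encodes the B cell surface protein CD20 (1423226_at), ranged 70.3-fold, the widest of the 35 genes. It read 8.66, 8.32 and 5.54 in wild type at 8 h, 4.69, 7.90 and 8.46 in null at 8 h, 9.69, 7.90 and 9.98 in wild type at 24 h, and 6.09, 9.62 and 10.83 in null at 24 h. Cd79b, a signalling chain of the B cell receptor (1417640_at), read 7.46, 7.45 and 4.88 in wild type at 8 h, 5.22, 6.84 and 7.15 in null at 8 h, 8.27, 6.77 and 8.72 in wild type at 24 h, and 5.36, 8.35 and 9.51 in null at 24 h. Its partner Cd79a (1418830_at) ranged 8.26-fold, from 4.84 to 7.89, and was lowest in wild-type pool 3 at 8 h. As for the T genes, each group held 1 low pool and the groups overlapped.

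The regions before the starts of Cd79a, Cd22 and Vpreb3 are shown for the B genes, since each carries a motif of a B lineage factor or of the ETS family, with the same build, window and use of capitals.
Cd79a chr7:24897247-24897496, strand plus: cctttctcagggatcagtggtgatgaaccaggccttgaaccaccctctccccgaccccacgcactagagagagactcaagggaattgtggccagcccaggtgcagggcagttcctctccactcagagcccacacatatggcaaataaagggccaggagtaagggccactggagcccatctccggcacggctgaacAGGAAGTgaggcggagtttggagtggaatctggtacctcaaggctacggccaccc
Cd22 chr7:30879029-30879278, strand minus: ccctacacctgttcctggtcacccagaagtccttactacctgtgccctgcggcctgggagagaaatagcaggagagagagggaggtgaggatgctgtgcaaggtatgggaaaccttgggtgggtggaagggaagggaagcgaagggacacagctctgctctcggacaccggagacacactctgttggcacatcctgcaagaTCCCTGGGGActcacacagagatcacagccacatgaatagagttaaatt
Vpreb3 chr10:75948050-75948299, strand plus: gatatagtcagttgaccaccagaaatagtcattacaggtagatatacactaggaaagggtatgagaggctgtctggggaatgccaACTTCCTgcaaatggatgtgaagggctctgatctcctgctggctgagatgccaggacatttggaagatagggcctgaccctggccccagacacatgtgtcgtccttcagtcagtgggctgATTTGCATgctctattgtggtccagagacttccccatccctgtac
Cd79a holds the ETS letters 55 to 49 bases before the start. Cd22 holds a palindrome bound by EBF1, TCCC and GGGA with any 2 bases between, 49 to 40 bases before the start, the single match in 17 B windows (5.88%), with none in T windows and 0.779% of all windows. Vpreb3 holds the octamer ATGCAAAT, which POU factors bind and OBF1 is recruited to, 45 to 38 bases before the start, and the ETS letters further upstream. The octamer stood in 2 of 17 B windows (11.8%), those of Blnk and Vpreb3, in 0 of 22 T windows and in 1.60% of all windows. A RUNX motif, TGTGGTT, stood in 1 T window (Lck) and 1 B window (Ebf1), with 4.40% of all windows, and a TCF/LEF motif, CTTTGAA, in 1 T window (Bcl11b) and no B window, with 4.46% of all. No 2 of these motifs overlap in the windows printed here.

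Receptors of mature B cells varied widely. The complement receptor Cr2, which lowers the threshold of B cell activation, read 7.15, 6.68 and 5.08 in wild type at 8 h, 4.33, 6.18 and 6.56 in null at 8 h, 7.69, 5.77 and 8.33 in wild type at 24 h, and 4.56, 7.28 and 8.58 in null at 24 h. The low-affinity IgE receptor Fcer2a ranged 14.9-fold, the inhibitory lectin Cd22 11.02-fold and the tetraspanin Cd37 7.99-fold. Inside the cell, the scaffold Bank1 ranged 7.37-fold, the Fc receptor-like protein Fcrla 7.78-fold, the kinase Blk 5.82-fold and the adaptor Blnk 5.10-fold. Vpreb3, a chaperone-like partner of immunoglobulin heavy chains, ranged 2.03-fold, from 5.39 to 6.41.

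Among the B cell transcription regulators, some followed the pools and others did not. Pou2af1, which encodes OBF1, read 7.24, 6.90 and 3.94 in wild type at 8 h, 3.95, 6.52 and 6.80 in null at 8 h, 7.80, 6.07 and 8.13 in wild type at 24 h, and 4.36, 7.81 and 8.93 in null at 24 h, a range of 31.8-fold. The ETS factor Spib ranged 19.1-fold with the same low pools. Ebf1 did not: its representing probe set (1416301_a_at) stayed between 9.31 and 9.93, with a correlation of -0.04 with the other B genes, and its 5 probe sets had correlations between -0.04 and 0.31. EBF1 is also a regulator of adipocyte development, and which cells gave this signal was not tested. Bcl11a, a factor of B cell development, stayed between 6.26 and 6.72 at its representing probe set (1447335_x_at, r 0.07), but a pair of its other tested probe sets followed the B genes, 1456632_at with r 0.98 and 1419406_a_at with r 0.97.

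Against the mean of the other genes of its class, 16 of 19 T genes and 13 of 16 B genes had a correlation of at least 0.90 over the 12 arrays. Zap70, Ebf1 and Bcl11a were the 3 genes below 0.50, and Vpreb3 (0.77), Cd3e (0.893) and Cd4 (0.898) lay between. Most representing probe sets thus varied together and those 3 did not, which does not show the cells that gave the signal. Of Pax5, which was not tested, 1 probe set (1454401_at) had r 0.76 and the other (1421765_at) 0.06.

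T and B levels were compared pool by pool. Over the 12 arrays they correlated with Pearson's r 0.990 and Spearman's rho 0.993, after removal of the group means with r 0.997, and without the 2 pools farthest from the median T level with r 0.989 over 10 arrays. Both levels come from the same arrays and so share their RNA, pool and normalization. The B minus T difference ran 0.45 on the log2 scale from lowest to highest, 1.37-fold, against more than 7-fold for either level alone. It was 0.01, 0.08 and -0.08 in wild type at 8 h, -0.23, -0.08 and 0.04 in null at 8 h, 0.11, 0.23 and 0.20 in wild type at 24 h, and -0.18, -0.01 and -0.09 in null at 24 h. All 3 wild-type pools at 24 h lay above every other pool. Without the 7 genes that also mark other cells (Ebf1, Bcl11a, Blnk, Satb1, Cd37, Il7r and Cd27) that order was lost, with 0.24, 0.10 and 0.42 in wild type and -0.48, 0.19 and 0.29 in null at 24 h. The difference then ran 0.96 on the log2 scale (1.95-fold), beside 6.32-fold for T and 11.3-fold for B, and the slope of B on T was 1.34.

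**Figure D3:**
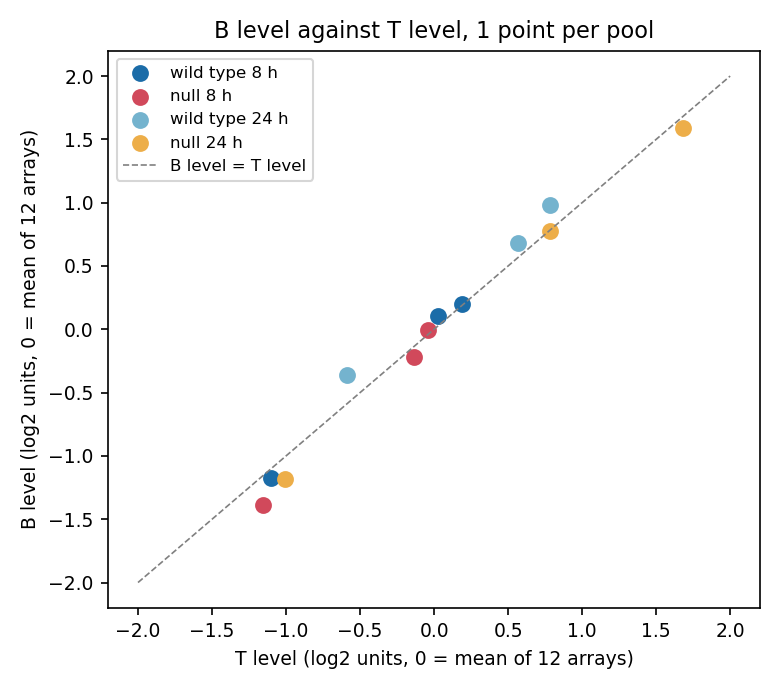
B level against T level for the 12 pools, both in log2 units relative to each gene's mean over the arrays, with the groups marked. The dashed line marks equal levels; the fitted slope of B on T is 1.06, and pools of all 4 groups are mixed along it.

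The study's design asks first what the absence of the progesterone receptor changed. At 8 h the T level was -0.30 ± 0.70 (SD, n = 3 pools) in wild type and -0.44 ± 0.62 in null, and the B level -0.29 ± 0.77 and -0.54 ± 0.74, differences well inside the spread between pools. In limma 0 of 19 T genes and 0 of 16 B genes were called at an adjusted p below 0.05, against 3.01% of all genes, and 0 and 0 had an unadjusted p below 0.05, against 16.3%. The median difference, wild type minus null, was 0.19 for T genes and 0.22 for B genes on the log2 scale, against 0.01 for all genes, with a positive sign for 15 of 19 and 15 of 16, against 52.6% of all genes. These signs rested on single pools: without null pool 1 the medians were -0.20 and -0.13, without wild-type pool 1 they were -0.08 and -0.03, and without wild-type pool 3 they were 0.53 and 0.67. Cd3d differed by 0.23 with a 95% interval from -1.88 to 2.34, and Ms4a1 by 0.49 with an interval from -2.35 to 3.32, so differences of several fold in either direction remain inside the interval. At representing probe sets, Bcl11a was the single gene whose 3 wild-type pools (6.58, 6.62 and 6.70) did not overlap the 3 null pools (6.44, 6.46 and 6.47), against 24.9% of all genes. Its difference was 0.18, with an adjusted p of 0.51 in limma.

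At 24 h the T level was 0.25 ± 0.74 in wild type and 0.49 ± 1.37 in null, and the B level 0.43 ± 0.71 and 0.39 ± 1.43. Again 0 T and 0 B genes were called in limma, against 1.3% of all genes, with 0 and 0 at an unadjusted p below 0.05 against 13.8%. No member separated the genotypes at its representing probe set, against 15.9%. The median difference was -0.19 for T genes (3 of 19 above 0) and 0.06 for B genes (10 of 16 above 0), against 0.01 for all genes (53.2% above 0). Il7r differed by -0.69 (95% interval -3.22 to 1.84) and Themis by -0.64 with an adjusted p of 0.53. Without wild-type pool 2 the T and B medians were 0.06 and 0.41, without null pool 3 they were 0.37 and 0.67, and without null pool 1 they were -1.05 and -0.86. With array weights they were -0.24 and -0.12. The medians over all 12 arrays were smaller than the median standard error of 0.61 for T genes and 0.62 for B genes, which was 0.11 for all genes.

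The interaction, the genotype difference at 24 h minus that at 8 h, had medians of -0.38 for T genes and -0.18 for B genes. It was above 0 for 1 of 19 T and 3 of 16 B genes, against 52.3% of all genes, and limma called 0 and 0, against 0.133% of all genes, with 0 and 0 at an unadjusted p below 0.05 against 6.21%. Leaving out null pool 1 at 24 h moved both medians to -1.17, and leaving out null pool 3 at 24 h moved them to 0.29 (T) and 0.48 (B).

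Time was compared within each genotype. In wild type the members lay higher at 24 h than at 8 h by a median of 0.54 (T) and 0.76 (B) on the log2 scale, with 18 of 19 and 14 of 16 above 0, against a median of -0.01 and 48% above 0 for all genes. Without wild-type pool 3 at 8 h the medians were 0.16 and 0.27, without wild-type pool 3 at 24 h 0.25 and 0.43, and without wild-type pool 2 at 24 h 1.03 and 1.15. None passed the test: limma called 0 T and 0 B genes, against 5.28% of all genes, and only Bcl11a, lower at 24 h by 0.25, had an unadjusted p below 0.05, against 22.1% of all genes. A difference of at least 0.5 was found for 11 T and 12 B genes, against 3.39% of all genes. Ms4a1 was 3.21-fold higher at 24 h (95% interval of the log2 difference -1.15 to 4.52, adjusted p 0.49), Cd79b 2.51-fold (adjusted p 0.49) and Cd3d 1.83-fold (adjusted p 0.65). The groups separated for Zap70, Bcl11a and Vpreb3 alone, against 26.2% of all genes. Vpreb3 read 5.71, 5.60 and 5.39 at 8 h and 6.0, 5.81 and 5.80 at 24 h, a difference of 0.30 with a limma adjusted p of 0.33. It passed the filter on 3 arrays, all at 24 h (wild-type pool 1 and null pools 2 and 3). Its difference over time is thus not separate from the filter.

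In null the medians over time were 0.96 for T genes and 1.06 for B genes, with 19 of 19 and 15 of 16 above 0, against a median of -0.02 and 44.8% above 0 for all genes. Between same-numbered null pools, the T level differed by 0.15, 0.92 and 1.72 (24 h minus 8 h, pools 1 to 3) and the B level by 0.20, 1.00 and 1.59. The match is by number only, and whether these pools belong together was not tested. Without null pool 1 at 8 h the medians over genes were 0.49 and 0.54, without null pool 3 at 24 h 0.32 and 0.38, and without null pool 1 at 24 h 1.64 and 1.86. With all arrays, limma called 0 T and 0 B genes, also with the pool number as a block, against 4.57% of all genes, and 4 T genes (Cd3e, Cd4, Cd6 and Cd28) and 1 B gene (Vpreb3) were higher at 24 h with an unadjusted p below 0.05, against 6.27% of all genes in that direction and 21.2% in either. Cd3e was 1.69-fold higher at 24 h (log2 difference 0.76, SE 0.26, 95% interval 0.19 to 1.33, adjusted p 0.12). Vpreb3 was 1.42-fold higher (adjusted p 0.12), Cd4 1.36-fold (adjusted p 0.16), Cd6 2.03-fold (adjusted p 0.16) and Cd28 2.42-fold (adjusted p 0.23). These genes were not those with the largest differences: Ms4a1 was 3.55-fold higher with an interval of the log2 difference from -1.01 to 4.66 and an adjusted p of 0.46. At least 0.5 was reached by 17 T and 14 B genes, against 2.98% of all genes, and the groups separated for Cd3e and Cd4 only, against 26.3%. Vpreb3 and Fcrla lay above the array median on 3 arrays each, all at 24 h, so they were tested only through the later pools.

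**Figure D4:**
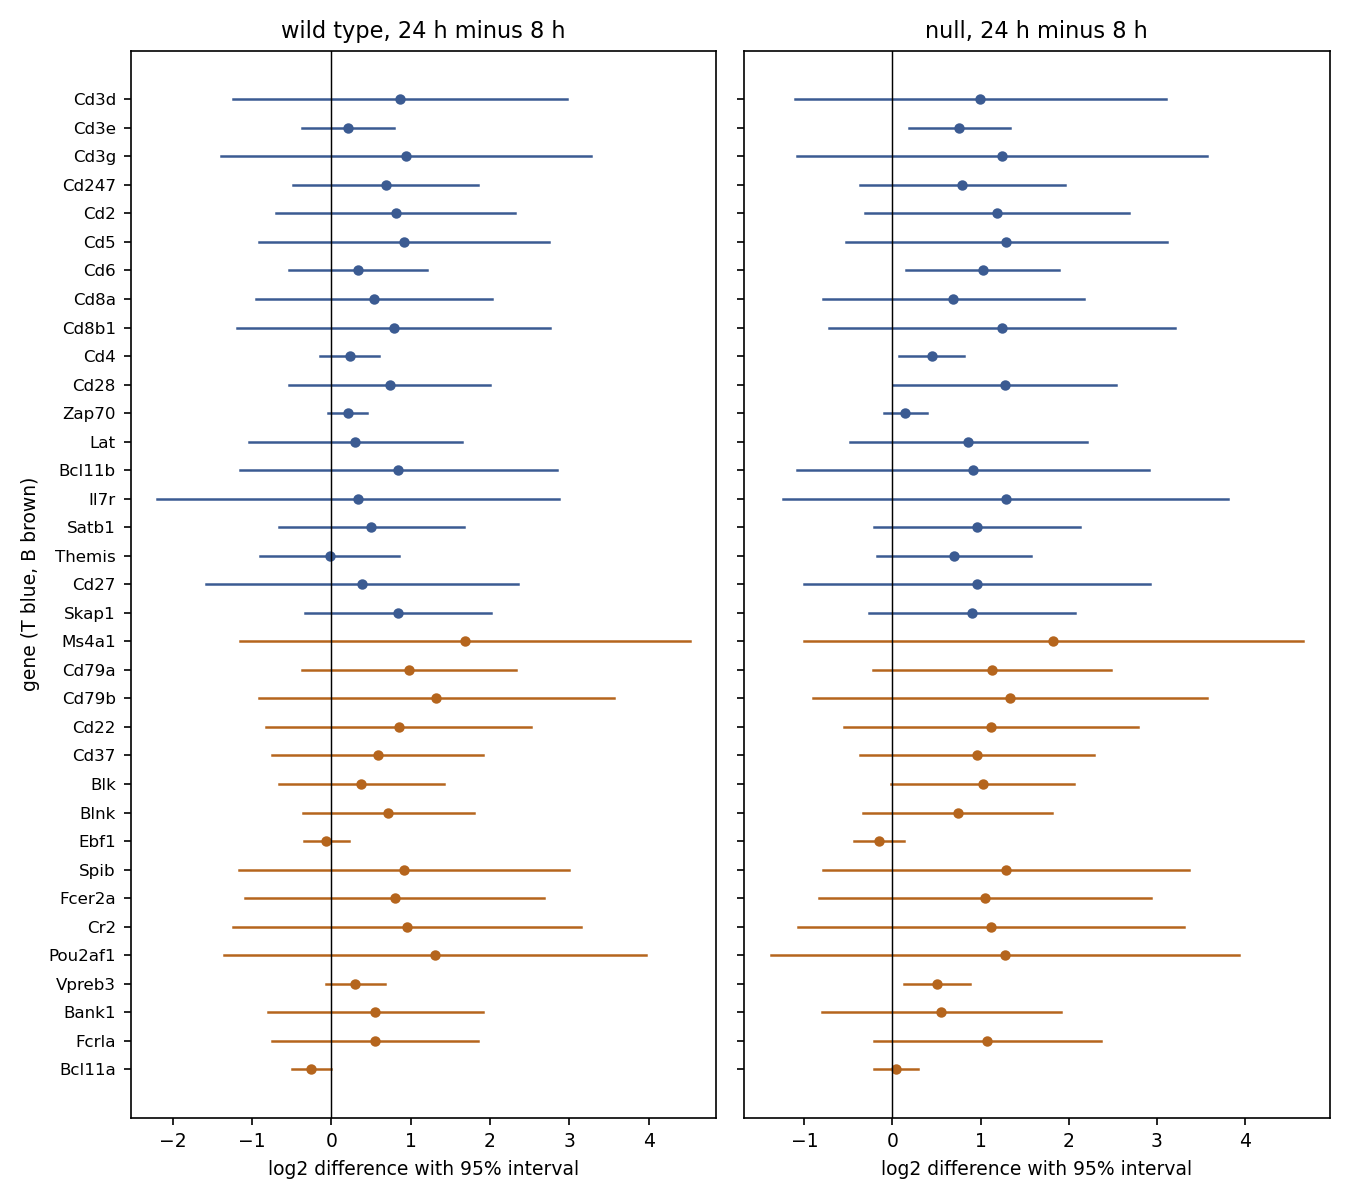
Log2 difference 24 h minus 8 h of each tested T and B gene in wild type and in null, from the limma fit over 12 arrays. Most points lie above 0 in both genotypes (18 and 19 of 19 T genes, 14 and 15 of 16 B genes), and none was called.

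The comparisons were repeated without the pools that stand apart. Without the 4 low pools, a choice made on the measured level itself that removes most of the spread by construction and leaves 2 pools a group, limma called 17 T and 13 B genes in null, against 8.43% of all genes, with medians of 1.47 and 1.59. In that fit it called 0 and 0 in wild type, against 4.05%, with medians of 0.62 and 0.73, and 0 and 0 between genotypes at either time. Leaving out null pool 1 at 24 h alone gave 1 T gene (Skap1) and 2 B genes (Fcrla and Vpreb3) in null, against 4.37%. Both of these B genes were tested only through pools at 24 h. With array weights in limma, 3 T genes (Cd3e, Cd4 and Cd6) and 5 B genes (Blk, Cd79a, Ebf1, Fcrla and Vpreb3) were called, Ebf1 downwards, against 24.1% of all genes.

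At the level of single probe sets, 1 of the 51 tested was called in any comparison, an Ebf1 probe set that does not represent the gene (1439789_at). It read 8.21, 8.42 and 8.39 in wild type and 8.47, 8.66 and 8.53 in null at 8 h, then 8.71, 9.02 and 8.98 in wild type and 9.11, 9.03 and 8.98 in null at 24 h. The 24 h pools lay above the 8 h pools in both genotypes, by 0.56 in wild type (limma adjusted p 0.012) and 0.49 in null (adjusted p 0.021), against 5.22% and 4.4% of all probe sets called. In the genotype comparisons at 8 h and 24 h and in the interaction, limma called 0 of the 51, against 3.07%, 1.11% and 0.143% of all probe sets. At an unadjusted p below 0.05 in limma there were 0, 1 and 0, against 16.3%, 13.8% and 6.21% of all genes. That 1 was the Cd8a probe set 1440164_x_at, which does not represent its gene. At 24 h it read 5.53, 5.53 and 5.38 in wild type and 5.89, 6.11 and 6.03 in null (limma adjusted p 0.073). Its genotypes did not overlap at 8 h either, nor did those of the Ebf1 probe set 1439789_at and the representing Bcl11a probe set at 8 h. At 24 h those of the Ebf1 probe set 1416302_at did not overlap. Over all genes, the share without overlap was 24.9% at 8 h and 15.9% at 24 h. The representing Ebf1 probe set differed by -0.06 in wild type and -0.15 in null, with adjusted p-values of 0.83 and 0.53, so the probe sets of this gene disagree.

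The genes other than the T and B members whose values most resembled the T level over the 12 arrays were Acap1, with r 0.998, then Rasal3, Ipcef1, B3gnt5, Sash3, Limd2, Rasgrp1, Gpr171, Ccr7 and Lef1, the last with r 0.988. For the B level they were B3gnt5, with r 0.995, Ccr6, Rasal3, Tnfrsf13c, Ltb, Acap1, Arhgap45, Ccr7, Ipcef1 and Tbc1d10c, with r 0.988. Ccr7 guides naive lymphocytes into lymph nodes, Tnfrsf13c encodes the receptor for the B cell survival factor BAFF, and Lef1 is a T lineage transcription factor. Of the 12004 genes tested, 208 that are not T or B members reached r 0.90 with the T level and 184 with the B level. These correlations are over the same 12 arrays as the levels themselves.

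Further lists from the same pathways were described by their mean level per pool, over their tested genes that are not members. For T cell receptor signalling and co-stimulation (11 of 22 genes tested) the level had r 0.992 with the T level and ranged 2.07 on the log2 scale over the arrays. Limma called 0 of its genes in all 5 comparisons, against 0.133% to 5.28% of all genes. At an unadjusted p below 0.05 there was 1 gene between genotypes at 8 h, against 16.3% of all genes. Over time in null there were 3, against 21.2%. For B cell receptor signalling and antigen presentation (18 genes) r was 0.966 and the range 2.07, again with 0 called in all 5. Between genotypes at 24 h, 1 of these genes had an unadjusted p below 0.05 in limma, against 13.8% of all genes. Naive lymphocyte homing and trafficking (10 genes) followed most closely, with r 0.997 and a range of 2.30, and regulatory T genes (4 genes) had r 0.971. Of the homing genes, S1pr1, a receptor that lets lymphocytes leave lymph nodes and that endothelium carries as well, was called at 8 h, 1.60-fold lower in wild type than in null (adjusted p 0.0150), with r 0.11 to the T level. Pan-leukocyte genes (13 genes) had r 0.975, natural killer and cytotoxic genes (8 genes) r 0.899 and dendritic cell genes (5 genes) r 0.655. Single genes of the last 2 lists differed. Of the cytotoxic genes 5 reached r 0.8 with the T level, but Gzma (0.17), Gzmb (-0.16) and Tbx21 (0.44) did not. The dendritic cell genes ran from -0.42 (Cd209a) to 0.91 (Siglech). In the pan-leukocyte, cytotoxic, dendritic cell and regulatory T lists limma called 0 genes in each comparison, against 0.133% to 5.28% of all genes. At most 1 gene a list had an unadjusted p below 0.05 in any of them, against 6.21% to 22.1% of all genes.

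The list of lymph node stroma and high endothelial venules, the vessels through which lymphocytes enter a node, had 7 of its 14 genes tested. Madcam1, Ccl21a, Ccl19, Chst4 and Fut7 were among those not tested. Its mean level had r 0.861 and a range of 1.89, but the 7 tested genes differed. Glycam1 (r 0.87) and Cxcl13 (r 0.93) followed the T level, Tnfsf13b (0.68) and Il7 (0.60) did so less closely, and Ltbr (-0.69) and Nkx2-3 (-0.52) ran the other way. The single called gene of this list was Pdpn, the stromal glycoprotein podoplanin, 2.02-fold higher in wild type than in null at 8 h (adjusted p 0.00320), with r -0.07 to the T level. Glycam1, a mucin of high endothelial venules that mammary epithelium also secretes, was picked after its values were seen. It read 10.80, 10.56 and 7.14 in wild type at 8 h, 4.06, 9.66 and 10.56 in null at 8 h, 11.31, 8.95 and 11.66 in wild type at 24 h, and 4.82, 11.64 and 11.65 in null at 24 h, lowest in the same pool of each group as the T and B genes. Cxcl13 attracts B cells. The part of lymph node tissue in the pool differences was not tested.

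Genes of plasma cells, the antibody-secreting progeny of B cells, were mixed (10 genes, r 0.625 for their mean level). Mzb1 (r 0.92) and Ighm (r 0.77) followed the T level, while Xbp1 (-0.31), Sdc1 (-0.27) and Fkbp11 (-0.51) did not. Igha, the constant region of IgA, read 6.96, 7.12 and 6.31 in wild type at 8 h, 9.59, 9.71 and 9.80 in null at 8 h, 7.36, 8.78 and 8.12 in wild type at 24 h, and 9.94, 9.87 and 10.54 in null at 24 h. Its values separated the genotypes at both times, against 24.9% of all genes at 8 h and 15.9% at 24 h. The correlation of Igha with the T level was 0.19. Jchain, which joins IgA and IgM into multimers, had r 0.56. Of the list's 11 tested genes, Pou2af1 included, limma called 2 lower in wild type than in null at 8 h and 1 at 24 h. The shares called of all genes were 3.01% and 1.3%. Over time in wild type it called 2 higher and 1 lower, against 5.28%. In limma Igha was 7.49-fold lower in wild type than in null at 8 h (adjusted p 0.000551) and 4.10-fold lower at 24 h (adjusted p 0.00930), while Jchain was 7.12-fold lower at 8 h (adjusted p 0.0124). Over time in wild type, Jchain rose 8.65-fold (adjusted p 0.00898), Igha rose 2.44-fold (adjusted p 0.0398) and Irf4, a factor of plasma cell differentiation, fell 1.80-fold (adjusted p 0.0161).

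Of the immature thymocyte and pre-B list, 2 of 7 genes passed the filter on low values (Igll1 and Cd1d1). Their mean level ranged 0.23 on the log2 scale over the pools, with r -0.13. Levels of other mammary cell lists had negative correlations with the T level, from -0.09 for skeletal muscle and -0.27 for epithelium to -0.55 for white adipocytes and -0.70 for endothelium, and macrophage and myeloid genes had r -0.33. Skeletal muscle (range 6.17) and brown adipocyte genes (range 1.90, r -0.20) also differed widely between pools, without following the lymphocyte genes. Of 8 brown adipocyte genes, limma called 3 (Ucp1, Cidea and Fabp3) lower in wild type than in null at 8 h and 0 higher, against 3.01% of all genes. Some epithelium, endothelium, fibroblast, myeloid, and mast cell and neutrophil genes were called as well and are not named here. The part of these tissues in the T and B levels was not tested.

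**Figure D5:**
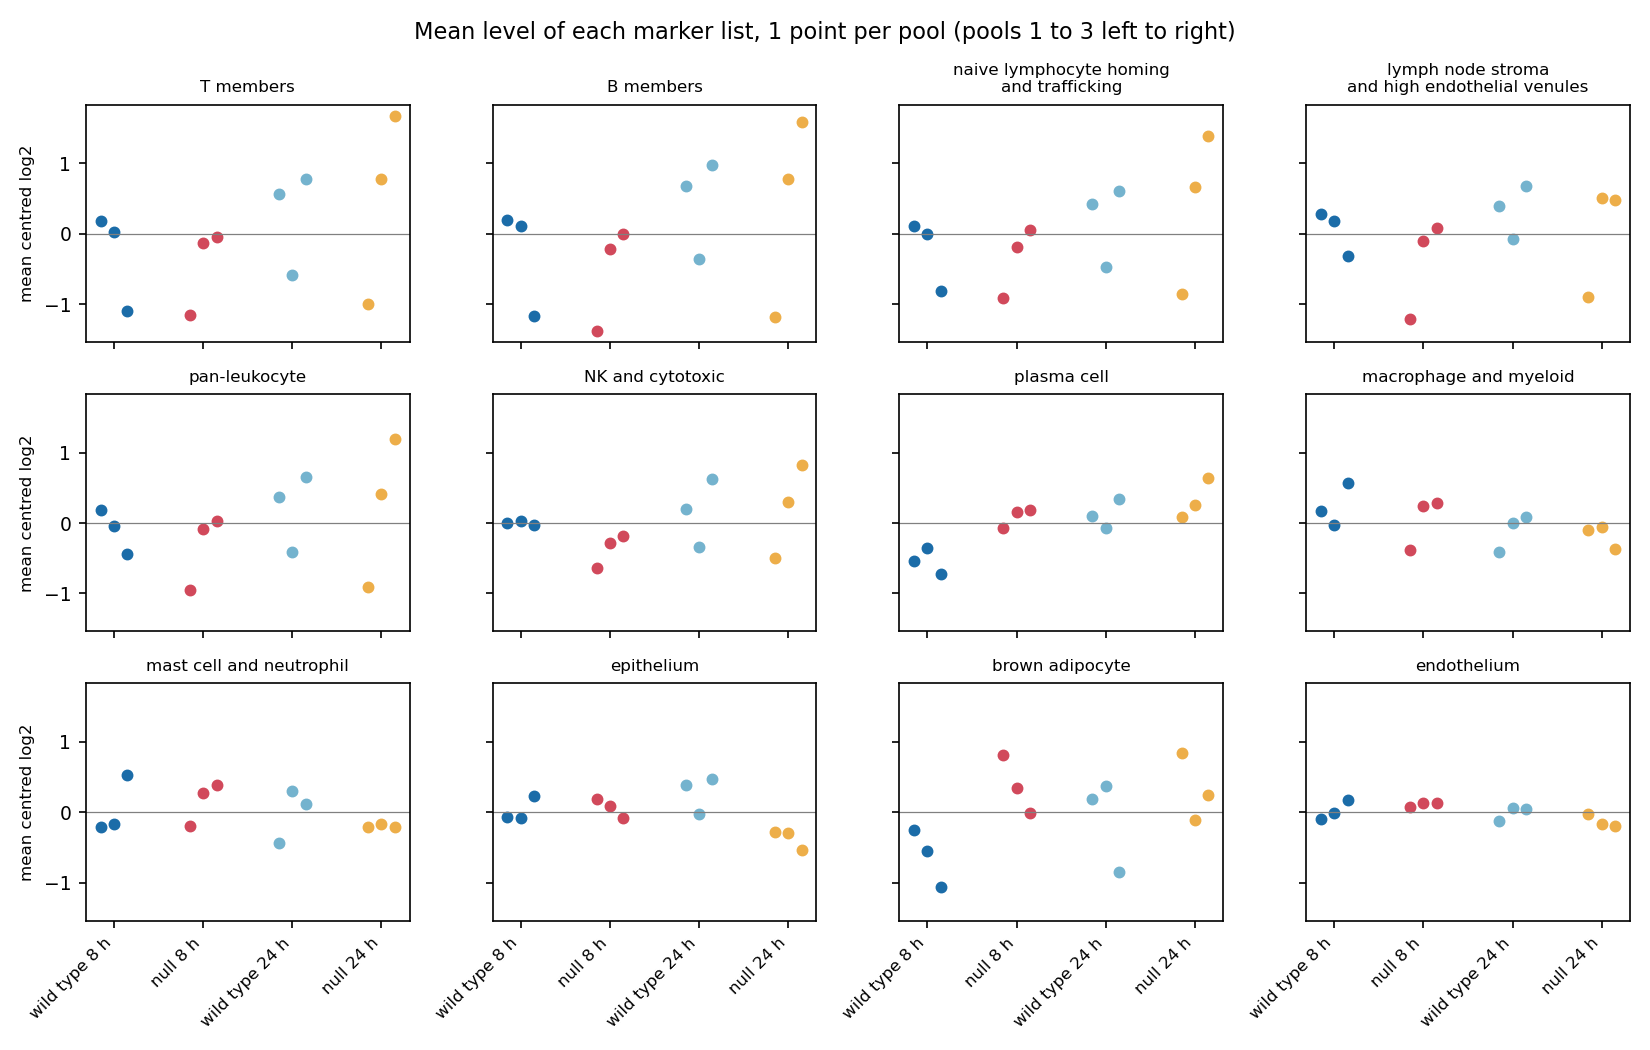
Mean level of 12 marker lists per pool, in log2 units relative to each gene's mean over the 12 arrays, with the pools in their 4 groups. The lymphocyte, homing and pan-leukocyte lists share the 4 low pools, while the epithelium, brown adipocyte and endothelium lists order the pools differently.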

How the data were processed

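Each array held biotin-labelled cRNA of total RNA from a pool of 3 mice, per the labels' protocols. The authors deposited 1 table of 45101 probe sets by 12 arrays, used here as log2 values, a scale judged from their range. MAS5 appears, without a stated role, in the submitters' processing notes. How probes were summarized and arrays normalized is not given in the sources used here. Gene symbols came from the platform annotation, and 0 of the members' 77 symbols differed in RefSeq.

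Of 45037 probe sets that are not controls, 23709 were tested, representing 12004 genes. Limma 3.58.1 in R 4.3.3 (lmFit, eBayes with a trended prior) fitted 4 group means over 12 arrays, without the pool number as a block, leaving 8 residual degrees of freedom. A call needed a p below 0.05 after Benjamini-Hochberg adjustment over all probe sets tested, and intervals are 95% intervals of the moderated fit. The fit was tested on simulated data. Fold values are 2 to the power of the log2 difference, written as at least 1.

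Members and lists were chosen with earlier results of these data known, and the motifs and 3 added alternatives after the data were seen. All members are accounted for; values were given for called members, for those whose groups did not overlap, for the core receptor genes, and for further members chosen after their values were seen. Of the other lymphocyte, lymph node and plasma cell lists, up to 4 called genes were named. Of the remaining cell lists, called genes were named for brown adipocytes only. The labels number the pools as biological replicates, and null pools at 8 h and 24 h were matched by number only for description. Same-numbered deviations from the group means correlated with r 0.52, 0.26 and 0.38 over time in null. The same values were 0.45, -0.01 and 0.02 over time in wild type. Between genotypes they were 0.13, -0.03 and -0.02 at 8 h and 0.06, -0.04 and 0.43 at 24 h. Whether same-numbered pools belong together was not tested. The promoters are those of RefSeq GRCm38.p6. Figures were drawn with matplotlib 3.10.9. The number of arrays limits the precision.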

Additional observations from a re-analysis of the deposited data

How the results depend on the processing

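Every comparison was repeated under other filters, priors, normalizations, a floor on low values, array weights, smaller sets of arrays and other probe set choices. In the genotype comparisons, the interaction and time in wild type, no T or B gene was called under any of these alternatives. Time in null was the exception. Array weights called 3 T and 5 B genes, against 24.1% of all genes. Leaving out 1 array at a time called 0 to 1 T and 0 to 2 B genes, the most without null pool 1 at 24 h, against 4.37% there. Leaving out the 4 low pools, a choice made on the measured level itself, called 17 T and 13 B genes, against 8.43%. With the replicate block, 0 T and 0 B genes were called in time in null, and the block changed no other call. Leaving out 1 array moved the median interaction of B genes between -1.17 and 0.48, and the medians of both genotype comparisons changed sign. The medians over time kept their sign, from 0.16 to 1.03 (T) and 0.27 to 1.15 (B) in wild type and from 0.32 to 1.64 and 0.38 to 1.86 in null. A filter for genes above the array median on all arrays drops low members and left 5 T and 6 B genes, Zap70, Ebf1 and Bcl11a among them. With it the medians over time were 0.23 and 0.57 in wild type and 0.76 and 0.65 in null. Without the 7 genes that also mark other cells, the B minus T difference over time was 0.31 in wild type (0.17 with them) and 0.20 in null (-0.00014 with them). The Ebf1 probe set 1439789_at lost its call in wild type in the fit of the compared groups only (adjusted p 0.053), without wild-type pool 1 at 8 h (0.060) and without the 4 low pools (0.052), and in null without pool 1 (0.054) or 3 (0.084) at 8 h, pool 2 at 24 h (0.073) or the 4 low pools (0.072). These causes were not tested beyond the smaller number of arrays. Low values near background limit what the fold ranges of single genes show.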
